A study of Mus musculus with 8 samples.

Results

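Melanotropes are the hormone-secreting cells of the pituitary intermediate lobe. A list of 5 receptor genes, taken as candidates for the control of their secretion, is described here: Drd2, Crhr1, Gabbr1, Gabbr2 and Nr3c1. The members were taken by name from the deposited FPKM table and joined by Ensembl identifier to the deposited read counts. All 5 were found among the 48526 genes of the count table, and all 5 passed the filter on low counts that 15580 genes passed.

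Dopamine released by hypothalamic nerve endings holds melanotrope secretion down, and the D2 receptor encoded by Drd2 acts through inhibitory G proteins that lower cAMP and close calcium channels. Crhr1 encodes the receptor for corticotropin-releasing hormone (CRH), which raises cAMP through a stimulatory G protein and favours release. GABA also reaches the lobe through nerve endings. Its slow action runs through the GABAB receptor, which works as a pair of unlike subunits, with GABBR1 binding GABA and GABBR2 coupling to the G protein. Nr3c1 encodes the glucocorticoid receptor, a transcription factor that enters the nucleus when it binds steroid and that represses Pomc in corticotropes of the anterior lobe.

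RNA was sequenced from neuro-intermediate lobes of C57B6 mice in 8 libraries, each from a pool of 5 lobes, and per the methods the mice were males aged 3 months. The 4 groups of 2 libraries were WT, ACreb3l2, AXBP1 and the double transgenic ACreb3l2/AXBP1. ACreb3l2 and AXBP1 are acidic dominant-negative proteins that pair with the transcription factors Creb3l2 or XBP1 and keep them from binding DNA. Both transgenes were driven by the rat POMC promoter, which is active in melanotropes, so that the other cells of the lobe were not the target. Results of a single mouse line per transgene are shown in the study. The comparisons ask whether blocking either factor, or both, changes the receptors' transcripts. The labels do not say that pools of a group were bred or collected separately, so p-values measure only the spread between these libraries. Counts are scaled within each library, so every rise or fall given here is relative to the other transcripts of that library. The study reports less total RNA in the transgenic lobes, with a synergistic effect of both transgenes. Amounts per lobe or per cell were not tested here.

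The libraries held 28256086 to 37988912 counted reads. Pomc, the hormone precursor of melanotropes, took 6.91% to 14.6% of them, and all 8 genes of a list of melanotrope markers were detected, so the labelled cell type was present. Markers of pituicytes, endothelial cells and anterior lobe cells were detected as well, with no listed marker at 0. WT replicate 2 stood apart from WT replicate 1 for the receptors: it had more Drd2 and Pomc and less of the other 4 members. Creb3l2 itself had 26775 to 28682 normalized counts in the WT and ACreb3l2 libraries, 18837 to 22833 with AXBP1 and 14044 to 21205 with both transgenes, and Xbp1 had 11877 and 13436 for WT, 9155 and 9205 with ACreb3l2, 12448 and 13850 with AXBP1 and 17639 and 12854 with both. Against WT the log2 change of Creb3l2 was -0.08 ± 0.17 (standard error) with ACreb3l2, and that of Xbp1 was 0.06 ± 0.14 with AXBP1. Neither passed the test. With both transgenes Creb3l2 was called lower (-0.69 ± 0.18, adjusted p = 0.0428 by edgeR). These counts do not tell a transgene from the endogenous transcript.

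The genes lie on 5 chromosomes of the mouse build mm10. In the GENCODE M21 annotation Drd2 (ENSMUSG00000032259) spans chr9:49340627-49408177 on the plus strand, Crhr1 (ENSMUSG00000018634) chr11:104132855-104175523 on the plus strand and Gabbr1 (ENSMUSG00000024462) chr17:37045966-37075067 on the plus strand. Gabbr2 (ENSMUSG00000039809) spans chr4:46662305-46991873 on the minus strand, and Nr3c1 carries the identifier ENSMUSG00000024431. No other annotated gene overlaps any of the 5. Reads were counted over whole genes, so isoforms of a receptor were not separated.

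Creb3l2 and XBP1 are basic leucine zipper factors that bind sites with the letters ACGT or, for many members of the unfolded protein response, CCACG. RefSeq promoter windows of GRCm38.p6 (250 bases before to 50 bases after the annotated start) were at hand for 4 members, Drd2, Crhr1, Gabbr1 and Gabbr2, and both strands were searched for these letters. ACGT stood only in the Gabbr2 window, 82 bases before the RefSeq start, and 30.9% of all 32851 windows hold it. CCACG or its reverse CGTGG stood in the windows of Drd2 (72 and 20 bases before the start), Crhr1 (20 bases after it) and Gabbr1 (127 and 79 bases before it), and 32.8% of all windows hold it. TGACG, the start of a cAMP response element, and AGAACA, a glucocorticoid receptor motif arm, were in none of the 4 windows (in 20.8% and 19.0% of all windows). The Drd2 and Gabbr2 windows are shown because they hold the different letters. The matches are in capitals and the rest is in lower case, 5′ to 3′ on the strand of the gene, with Drd2 at chr9:49340153-49340452 (plus strand) and Gabbr2 at chr4:46991665-46991964 (minus strand).
Drd2: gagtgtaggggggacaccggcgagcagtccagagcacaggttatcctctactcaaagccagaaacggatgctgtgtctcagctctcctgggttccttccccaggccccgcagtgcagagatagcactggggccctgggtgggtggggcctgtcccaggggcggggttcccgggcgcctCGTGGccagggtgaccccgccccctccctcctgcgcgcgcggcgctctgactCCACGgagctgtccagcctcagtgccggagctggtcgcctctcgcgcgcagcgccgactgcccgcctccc
Gabbr2: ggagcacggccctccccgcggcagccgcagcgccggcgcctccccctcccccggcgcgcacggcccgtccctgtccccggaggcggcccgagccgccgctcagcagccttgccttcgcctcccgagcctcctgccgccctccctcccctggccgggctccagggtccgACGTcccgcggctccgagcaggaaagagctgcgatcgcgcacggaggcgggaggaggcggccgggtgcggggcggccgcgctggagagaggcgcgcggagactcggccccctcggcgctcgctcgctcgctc
G and C made up 70.3% of the Drd2 window and 80.3% of the Gabbr2 window, against a median of 52.7% over all windows. The RefSeq starts are not all the GENCODE starts: that of Gabbr1 is the same, those of Drd2 and Crhr1 lie 224 and 74 bases upstream, so that the Crhr1 match precedes the GENCODE start, and that of Gabbr2 lies 159 bases downstream, so that the Gabbr2 match follows the GENCODE start. A match of letters is a description and does not show that a factor binds there.

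Per length of transcript, Drd2 was by far the most abundant of the 5. Its mean over the 8 libraries was 145 FPKM (fragments per kilobase of transcript, scaled to library depth, which allows genes to be compared), and the libraries ran from 118 to 177 FPKM. In WT it ranked 356 among the 15580 genes tested. Nr3c1 followed at 17.8 FPKM and Gabbr1 at 15.6 FPKM. Crhr1 stood at 4.43 FPKM and Gabbr2 at 0.51 FPKM. In WT, where it had 0.468 FPKM, Gabbr2 exceeded 7.21% of the genes tested.

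By FPKM the order Drd2, Nr3c1, Gabbr1, Crhr1, Gabbr2 held within each of the 8 libraries at all steps but that between Nr3c1 and Gabbr1. Nr3c1 and Gabbr1 overlapped in range, with Nr3c1 the higher in 7 of 8 libraries and a ratio from 0.921 to 1.37. On this scale these neighbours were not apart beyond their spread. The read counts place them otherwise: Nr3c1 had 23290 reads and Gabbr1 10063 over all libraries, at annotated exonic lengths of 7684 and 7764 bases. Crhr1 had 3430 reads over 2460 bases, so the step from Gabbr1 to Crhr1 also rests on FPKM. Why the measures differ was not tested. Drd2 exceeded Nr3c1 by 5.48 to 12.7 times. The GABAB subunits were far from equal: Gabbr1 had 24.5 to 36.3 times the FPKM of Gabbr2, and the ratio in WT, 31.4 ± 0.0835 (SD, n = 2), lay within the span of the ratios of the other groups. The read counts give a smaller gap, with 10063 reads for Gabbr1 and 889 for Gabbr2 over annotated exonic lengths of 7764 and 6686 bases. Whether Gabbr2 transcript came from melanotropes or from other cells of the lobe was not tested.

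**Figure D1:**
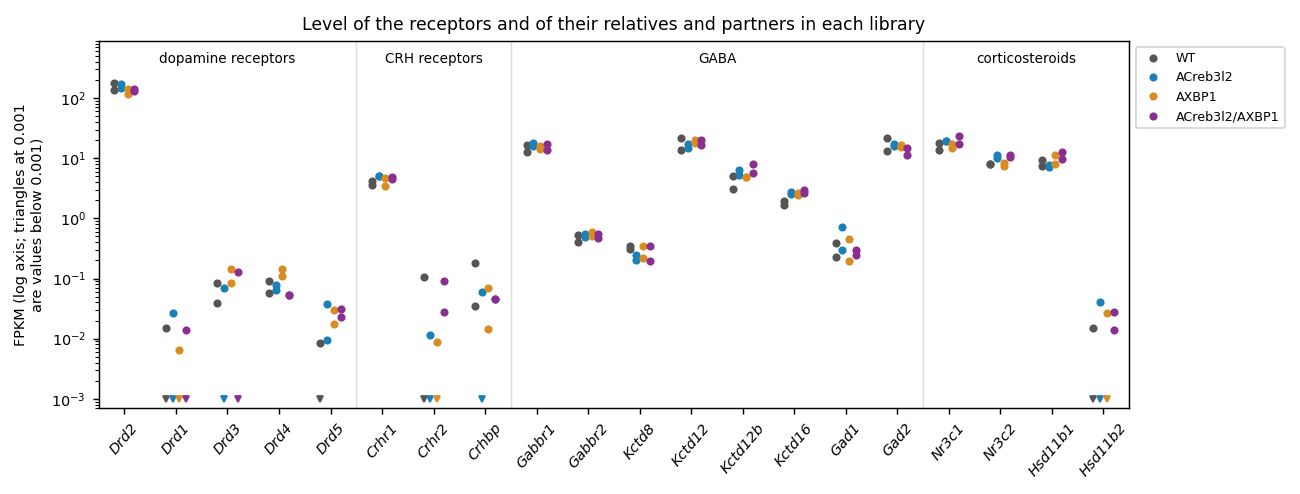
FPKM of the 5 receptors and of their relatives and partners in each of the 8 libraries, on a log axis, coloured by group, with values under 0.001 drawn as triangles at 0.001. Drd2 sits above 100 FPKM in every library while the other dopamine receptors stay under 0.2 FPKM, and on this scale Gabbr1 lies more than 20 times above Gabbr2.

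The dopamine receptor did not pass the test in any transgenic group. Normalized counts of Drd2 (reads scaled for library depth and composition) were 8153 and 11135 for WT, 8788 and 10365 with ACreb3l2, 8221 and 9608 with AXBP1 and 9187 and 7733 with both transgenes. Every transgenic range overlapped the WT range, and the widest gap between replicates was in WT. The log2 change against WT was -0.01 ± 0.16 (standard error) with ACreb3l2, -0.11 ± 0.16 with AXBP1 and -0.19 ± 0.16 with both, with edgeR adjusted p-values of 0.984, 0.814 and 0.464. The 95% interval in ACreb3l2/AXBP1, from -0.56 to 0.18, leaves room for a fall by 32.1% or a rise by 13.4%. The sign rests on WT replicate 2: without it the log2 changes were 0.23, 0.13 and 0.05.

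Pomc, the main product of melanotropes, is given beside Drd2. Its normalized counts were 3460466 and 5180565 for WT against 2766163 and 2049870 with both transgenes, a log2 change of -0.84 ± 0.25 that edgeR did not call (adjusted p = 0.0614) and DESeq2 did (adjusted p = 0.0201). Drd2 reads per 1000 Pomc reads numbered 2.36 and 2.15 in the WT libraries, 3.32 and 3.77 in those of ACreb3l2/AXBP1, and 2.27 to 3.03 in those of the single transgenics. The double transgenic libraries thus lay above all the others in this ratio. The ratio was not tested, and it does not say which transcript differs. Drd2 is also made by lactotropes and Crhr1 by corticotropes of the anterior lobe, and summed counts of 9 anterior lobe markers ran from 155872 to 231123 for WT, from 125544 to 164823 with ACreb3l2, from 80514 to 84502 with AXBP1 and from 106878 to 207254 with both transgenes. Their part in the receptors' levels was not tested. From such bulk samples alone fewer melanotropes and less RNA per melanotrope cannot be told apart. From histology the study reports a higher nuclear density in the transgenic lobes, which it reads as smaller melanotropes.

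Crhr1 was higher in both ACreb3l2 and both ACreb3l2/AXBP1 libraries than in either WT library, without passing the test. Normalized counts of Crhr1 were 383 and 341 for WT, 462 and 482 with ACreb3l2, 497 and 363 with AXBP1 and 450.0 and 437 with both transgenes. The AXBP1 libraries were far apart, and the lower of them fell between the WT libraries. The log2 change was 0.38 ± 0.15 in ACreb3l2 (95% interval from 0.05 to 0.72, unadjusted p = 0.0294, edgeR adjusted p = 0.237), 0.25 ± 0.15 in AXBP1 (adjusted p = 0.575) and 0.29 ± 0.15 in ACreb3l2/AXBP1 (adjusted p = 0.223). The change in AXBP1 was 0.0015 without AXBP1 replicate 1 and 0.46 without AXBP1 replicate 2. An unadjusted p under 0.05 is common here: 2610 of the 15580 genes had one in ACreb3l2.

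The ligand-binding GABAB subunit gene, Gabbr1, had the smallest standard errors of the 5. Normalized counts of Gabbr1 were 1250.1 and 1051 for WT, 1353 and 1301 with ACreb3l2, 1297 and 1247 with AXBP1 and 1202 and 1325 with both transgenes. Both ACreb3l2 libraries were above both WT libraries, and the other transgenic ranges overlapped WT. The log2 changes of 0.21 ± 0.10, 0.14 ± 0.10 and 0.13 ± 0.10 did not pass the test (edgeR adjusted p = 0.365, 0.629 and 0.412). The upper ends of the 95% intervals, 0.44, 0.38 and 0.37, are rises of 35.5%, 29.9% and 29.0%. Without WT replicate 2 the log2 changes were 0.085, 0.024 and 0.010, and without WT replicate 1 they were 0.34, 0.27 and 0.27.

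Gabbr2, the gene of the coupling subunit, had the fewest counts and the widest intervals. Normalized counts of Gabbr2 were 119 and 73.1 for WT, 97.2 and 119 with ACreb3l2, 135 and 113 with AXBP1 and 112 and 120 with both transgenes. WT replicate 2 was the lowest of the 8 libraries, WT replicate 1 lay among the transgenic ones, and no group stood clear of WT. The log2 changes were 0.16 ± 0.25, 0.37 ± 0.25 and 0.27 ± 0.25 (edgeR adjusted p = 0.791, 0.604 and 0.494), and the interval in AXBP1 ran from -0.18 to 0.93, so a rise of up to 1.90-fold lies within it. Without WT replicate 2 the change was -0.14 in ACreb3l2 and -0.04 in ACreb3l2/AXBP1.

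Nr3c1 rose relative to other transcripts in the double transgenic, the only call among the 5 members in the comparisons with WT. Normalized counts of Nr3c1 were 2649 and 2186 for WT, 2782 and 3099 with ACreb3l2, 3050 and 2720 with AXBP1 and 2988 and 3682 with both transgenes. All 6 transgenic libraries were above both WT libraries, ACreb3l2/AXBP1 replicate 2 was the highest, and the 3 transgenic groups overlapped each other. The log2 change in ACreb3l2/AXBP1 was 0.46 ± 0.13, or 1.38-fold (95% interval from 1.13 to 1.68, edgeR adjusted p = 0.0488). In ACreb3l2 it was 0.28 ± 0.13 (adjusted p = 0.306) and in AXBP1 0.26 ± 0.13 (adjusted p = 0.532). Nr3c1 spans chr18:39410545-39519421 on the minus strand.

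The Nr3c1 call lay at the edge of the threshold. It was kept in 6 of 18 alternatives, among them DESeq2 (adjusted p = 0.00954), and over all of them the adjusted p ran up to 0.409. The call was lost when WT replicate 2, ACreb3l2/AXBP1 replicate 2 or any 1 of the single transgenic libraries was left out, with log2 changes of 0.33 (adjusted p = 0.262) without WT replicate 2 and 0.30 (adjusted p = 0.350) without ACreb3l2/AXBP1 replicate 2. In FPKM the double transgenic libraries stood at 17.4 and 23.7 against 17.7 and 13.9 in WT, so that on this scale the groups overlapped.

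**Figure D2:**
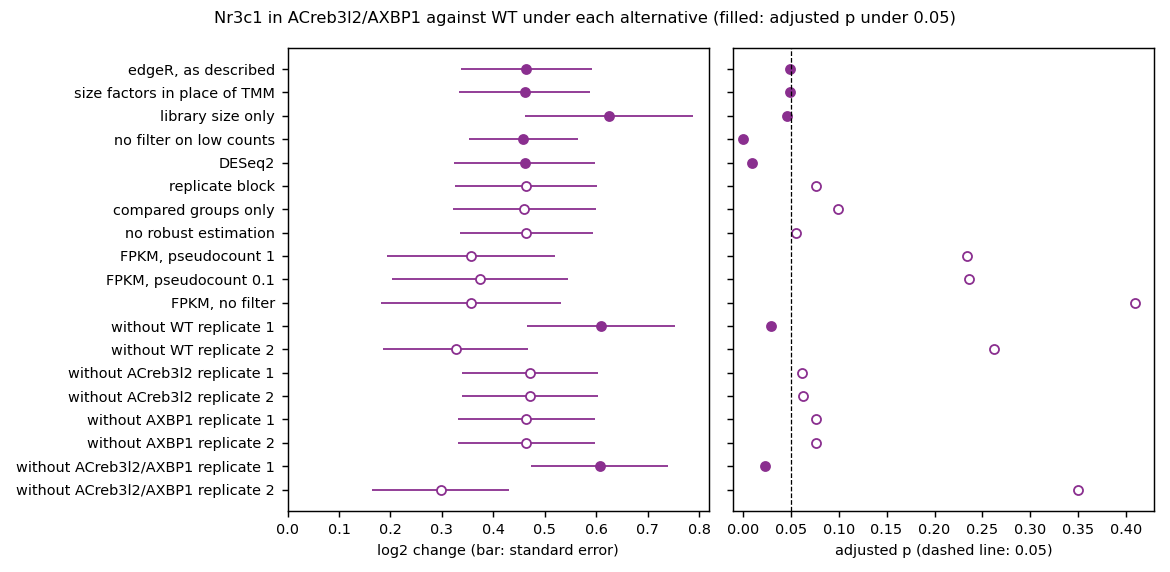
Log2 change of Nr3c1 in ACreb3l2/AXBP1 against WT with its standard error (left) and its adjusted p (right) in the fit as described and in 18 alternatives, filled where the adjusted p is under 0.05. The change stays above 0 in all of them, from 0.30 to 0.62, and the adjusted p crosses 0.05 in 12.

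Glucocorticoid receptor is made by nearly all cell types, so markers of other cells are given beside it. All 9 pituicyte and astrocyte markers and all 8 endothelial markers had log2 changes above 0 in ACreb3l2/AXBP1 against WT, where 51.7% of all genes did. Of the 9 pituicyte markers edgeR called 1, Aqp4 (5 at an unadjusted p under 0.05, 2 by DESeq2). Of the 8 endothelial markers it called 0 (1 at an unadjusted p under 0.05, 2 by DESeq2), where it called 10.1% of all genes. The summed normalized counts of the pituicyte list ran from 27483 to 35398 in WT and from 36336 to 44005 in ACreb3l2/AXBP1, and those of the endothelial list from 5549 to 6939 and from 7904 to 9796. Of 8 fibroblast and pericyte markers 7 were above 0 and edgeR called 0 (0 at an unadjusted p under 0.05, 0 by DESeq2), with sums from 22838 to 29612 in WT and from 30013 to 35544 in ACreb3l2/AXBP1. Other lists did not share this direction: 3 of 8 macrophage, 5 of 9 anterior lobe and 2 of 5 stem or marginal cell markers tested were above 0. In the hypothalamic axon list 1 of 5 and in the erythroid list 0 of 5 were above 0. The melanotrope list, whose sum is mostly Pomc, summed without Pomc to 336457 and 427584 in WT and to 334448 and 216238 in ACreb3l2/AXBP1. All 7 of its tested markers were below 0. Of these 7 edgeR called 2 lower, Tbx19 and Scg2 (5 at an unadjusted p under 0.05, 4 by DESeq2), where it called 10.1% of all genes. The part of these cell types in the Nr3c1 result was not tested.

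Set against the whole table, 1 of 5 members was called in ACreb3l2/AXBP1 against WT, where 10.1% of all genes tested were called and 3.06% were called higher. In ACreb3l2 against WT 0 of 5 members were called by edgeR (1 at an unadjusted p under 0.05, 0 by DESeq2), where 3.04% of all genes were called. In AXBP1 against WT 0 of 5 were called (0 at an unadjusted p under 0.05, 0 by DESeq2), where edgeR called 0% of all genes, 1554 genes had an unadjusted p under 0.05 and DESeq2 called 80. Both libraries of a group lay on 1 side of both WT libraries for 3 of 5 members with ACreb3l2, 1 of 5 with AXBP1 and 2 of 5 with both transgenes, and the shares over all genes were 45.5%, 46.2% and 58.3%. The median log2 change of the 5 members was 0.21, 0.25 and 0.27 in the 3 comparisons, against 0.01, 0.00 and 0.01 over all genes. The 3 comparisons share the WT libraries, and WT replicate 2 was the lowest of the 8 libraries for all members but Drd2, where it was the highest. An exact permutation test of 2 against 2 libraries cannot go below 0.333, so none was used.

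**Figure D3:**
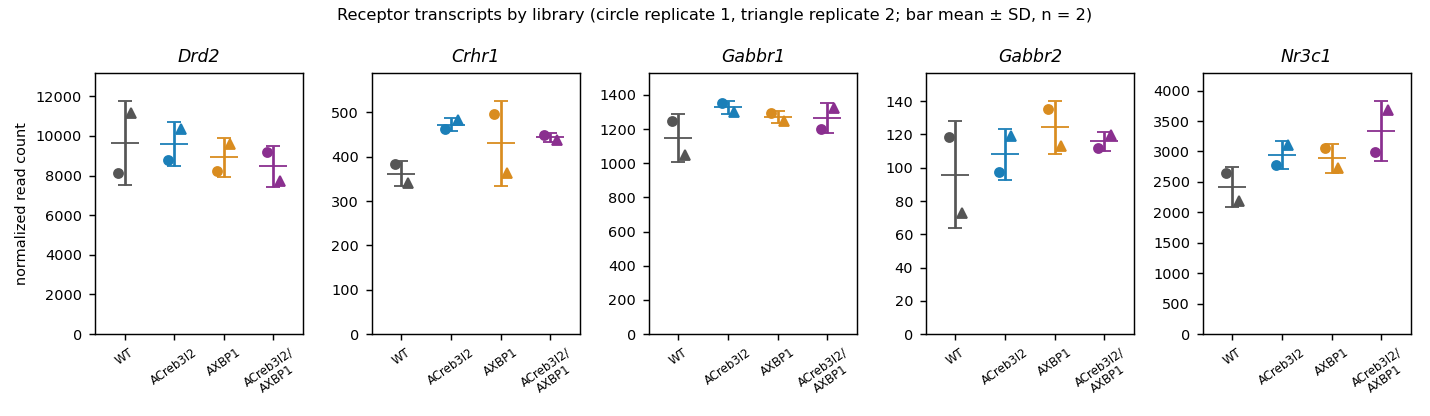
Normalized read counts of the 5 receptor genes in each library, with circles for replicate 1, triangles for replicate 2 and bars for the mean ± SD of the 2 libraries of a group, on axes that start at 0. All 6 transgenic libraries exceed both WT libraries for Nr3c1, and the WT libraries are far apart for Drd2 and Gabbr2.

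**Figure D4:**
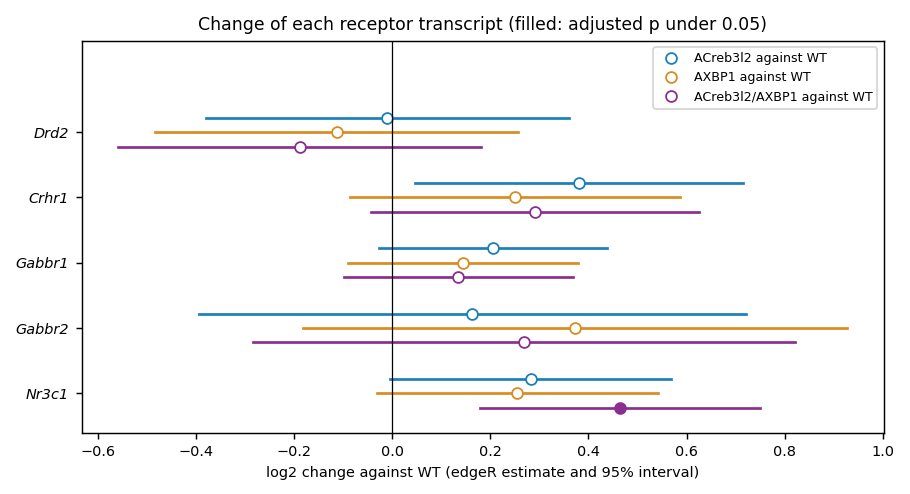
Log2 change of each receptor gene against WT with its 95% interval from edgeR, by transgenic group, filled where the adjusted p is under 0.05. Nr3c1 in ACreb3l2/AXBP1 at 0.46 is the filled point, and the intervals of Drd2, Gabbr1 and Gabbr2 take in 0 in all 3 groups.

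No receptor was called between the transgenic groups. By range, both ACreb3l2 libraries lay above both AXBP1 libraries for Gabbr1 and above both ACreb3l2/AXBP1 libraries for Crhr1, which is 1 of 5 members in each comparison where 43.9% and 36.9% of all genes were so placed. Between ACreb3l2/AXBP1 and AXBP1 this held for 0 of 5 members and 46.7% of all genes. In ACreb3l2 against AXBP1 0 of 5 members were called (0 at an unadjusted p under 0.05, 0 by DESeq2), where 0.719% of all genes were called. In ACreb3l2/AXBP1 against AXBP1 the count was likewise 0 of 5 by all 3 measures, where 0.623% of all genes were called. In ACreb3l2/AXBP1 against ACreb3l2 it was 0 of 5, where edgeR called 0% of all genes (1112 at an unadjusted p under 0.05, 36 by DESeq2). Nr3c1 had the highest log2 change of the 5 between ACreb3l2/AXBP1 and AXBP1, 0.21 ± 0.13 (95% interval from -0.08 to 0.49), and also between ACreb3l2/AXBP1 and ACreb3l2, 0.18 ± 0.13 (from -0.10 to 0.47). Without ACreb3l2/AXBP1 replicate 2 these values were 0.048 and 0.019, and without its replicate 1 they were 0.35 and 0.32.

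The interaction, which is the log2 change in the double transgenic minus the sum of the changes in the single ones, was below 0 for all 5 members, where 50.4% of all genes were above 0. It was -0.34 ± 0.21 for Crhr1, -0.27 ± 0.35 for Gabbr2, -0.21 ± 0.15 for Gabbr1, -0.07 ± 0.18 for Nr3c1 and -0.07 ± 0.23 for Drd2. None passed the test (0 of 5 at an unadjusted p under 0.05, 0 by DESeq2), and edgeR called 0% of all genes (386 at an unadjusted p under 0.05, 4 by DESeq2). The WT level enters each value with a positive sign, and WT replicate 2 was the lowest library for 4 of the members.

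Around the receptors, 148 genes of 12 lists were examined, of which 113 were tested. In ACreb3l2/AXBP1 against WT 8 were called higher and 2 lower (8.85% of those tested, against 10.1% of all genes), and in ACreb3l2 against WT 3 were called higher and 0 lower (2.65%, against 3.04%). These shares are near the background. In AXBP1 against WT edgeR called 0 of them (13 at an unadjusted p under 0.05, 2 by DESeq2).

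On the dopamine side, Drd2 was the only dopamine receptor with reads in number. Drd4 and Drd3 were the next, with means of 0.0812 and 0.0683 FPKM and at most 17 and 8 reads in a library, and none of the 4 other dopamine receptor genes passed the filter. Th, the enzyme of dopamine synthesis and a marker of the hypothalamic axons, was detected at 65.7 to 455 normalized counts and did not pass the test in any group. Of the 12 genes of inhibitory G protein subunits, receptor kinases and arrestins, all were tested. In ACreb3l2/AXBP1 against WT edgeR called 0 of them (1 at an unadjusted p under 0.05, 0 by DESeq2), where it called 10.1% of all genes. Gnai2 averaged 127 FPKM and Gnao1 47.8 FPKM. The calcium channel list had 0 of 8 tested genes called in ACreb3l2/AXBP1 against WT (1 at an unadjusted p under 0.05, 0 by DESeq2), against the same 10.1% of all genes. Cacna1a and Cacna1d stood at 6.13 and 6.05 FPKM. Gnao1, Cacna1a and Cacna1d overlap exons of 4930488L21Rik, Gm16183 and Chdh on the opposite strand, so their reads may be shared.

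Among the potassium channels that D2 and GABAB receptors open through G proteins, Kcnj9 rose and its partners did not pass the test. Normalized counts of Kcnj9 were 119 and 130 for WT, 265 and 241 with ACreb3l2, 237 and 201 with AXBP1 and 292 and 320 with both transgenes. Every transgenic library was above both WT libraries. The log2 change was 1.03 ± 0.16 in ACreb3l2 (edgeR adjusted p = 0.00783), 0.82 ± 0.16 in AXBP1 (adjusted p = 0.309 by edgeR, 0.0464 by DESeq2) and 1.30 ± 0.16 in ACreb3l2/AXBP1 (adjusted p = 0.00224). The last call was kept in 17 of 18 alternatives, and that in ACreb3l2 in 14, where ACreb3l2 replicate 1 was the only library whose removal lost it. Kcnj3, at 14.0 FPKM, had changes between -0.07 and 0.14, and Kcnj6, at 11.6 FPKM, between -0.34 and -0.07. Kcnj9, at 1.53 FPKM, overlaps an exon of Gm36937 on the opposite strand, as Kcnj3 does Gm26794 and Kcnj6 Gm41505, and whether counting used strand is not given in the sources used here, so reads of such pairs cannot be told apart.

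On the CRH side, Crhr1 stood alone. The 6 other genes of the CRH list (ligands, the second receptor and the binding protein) all failed the filter, with Crhbp at 0.0563 FPKM and Crhr2 at 0.0303 FPKM. Downstream, the cAMP list had 1 of 23 tested genes called in ACreb3l2/AXBP1 against WT (8 at an unadjusted p under 0.05, 4 by DESeq2), where 10.1% of all genes were called. The edgeR call was Adcy5, an adenylyl cyclase that inhibitory G proteins restrain, with 3946 and 3786 normalized counts for WT, 5038 and 4860 with both transgenes and between 4577 and 4938 in the single transgenic libraries. Its log2 change was 0.36 ± 0.08 in ACreb3l2/AXBP1 (edgeR adjusted p = 0.0216, kept in 10 of 18 alternatives and lost without WT replicate 2, ACreb3l2/AXBP1 replicate 2 or either AXBP1 library) and 0.31 ± 0.08 in ACreb3l2 (adjusted p = 0.0668 by edgeR, 0.0349 by DESeq2). Gnas, the stimulatory G protein, was among the most abundant genes at 3348 FPKM, with a log2 change of -0.36 ± 0.15 in ACreb3l2/AXBP1 (adjusted p = 0.135 by edgeR, 0.0241 by DESeq2). Gnas overlaps exons of Gm20721 and Nespas on the opposite strand, whose reads cannot be told apart from its own.

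On the GABA side, the lobe held the enzyme transcript Gad2 at 15.6 FPKM and Gad1 at 0.353 FPKM. Of 6 tested genes of GABA synthesis and transport edgeR called 0 in ACreb3l2/AXBP1 against WT (1 at an unadjusted p under 0.05, 0 by DESeq2), where it called 10.1% of all genes. Abat, which breaks GABA down, averaged 31.9 FPKM. Of the GABAB auxiliary subunits, which tune how fast the receptor response fades, Kctd12 was the most abundant at 17.7 FPKM and Kctd8 the least at 0.278 FPKM. Kctd16 had 90.3 and 113 normalized counts in WT and 155 and 169 in ACreb3l2/AXBP1, with 131 to 155 in the single transgenic libraries. Its log2 change in ACreb3l2/AXBP1 was 0.67 ± 0.19 (edgeR adjusted p = 0.0487), a call kept in 3 of 18 alternatives, lost whichever library was left out and not made by DESeq2 (adjusted p = 0.0702). DESeq2 called Kctd12b instead (log2 change 0.75 ± 0.23, adjusted p = 0.00255, against 0.0783 by edgeR), which is named after its values were seen. Kctd16, Kctd12 and Kctd8 overlap exons of genes without a common name on the opposite strand, and Kctd12 also overlaps Mir5130 on its own strand, and the reads of such pairs cannot be told apart. The fast GABAA receptors had 11 of 16 subunit genes tested, and edgeR called 0 of them in ACreb3l2/AXBP1 against WT (3 at an unadjusted p under 0.05, 1 by DESeq2), against the same 10.1% of all genes.

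On the steroid side, the mineralocorticoid receptor Nr3c2, the close relative of Nr3c1 that binds the same steroids, rose in 2 comparisons. Normalized counts of Nr3c2 were 1179 and 1275 for WT, 1569 and 1717 with ACreb3l2, 1537 and 1357 with AXBP1 and 1704 and 1768 with both transgenes. No transgenic library overlapped WT. The log2 change was 0.42 ± 0.10 in ACreb3l2 (edgeR adjusted p = 0.0482, kept in 3 of 18 alternatives and lost whichever library was left out) and 0.50 ± 0.10 in ACreb3l2/AXBP1 (adjusted p = 0.0139, kept in 14 of 18 and lost without ACreb3l2/AXBP1 replicate 2). Nr3c2 stood at 9.31 FPKM and overlaps an exon of Gm10649 on the opposite strand. Against WT, Nr3c2 was the only edgeR call among the 11 tested genes of receptor partners and steroid enzymes. That is 9.1% of them in ACreb3l2 and in ACreb3l2/AXBP1, where 3.04% and 10.1% of all genes were called. Hsd11b1, which regenerates active steroid, stood at 9.16 FPKM, and Hsd11b2, which inactivates it, failed the filter at 0.0154 FPKM.

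Of genes that glucocorticoid receptor is known to switch on, 10 were tested. In ACreb3l2/AXBP1 against WT edgeR called 0 of the 10 (2 at an unadjusted p under 0.05, 0 by DESeq2), a count near the 10.1% of all genes called, and their median log2 change was 0.20 in ACreb3l2/AXBP1. Replicates differed widely here. Normalized counts of Fkbp5 were 2067 and 1629 for WT, 3480 and 1698 with ACreb3l2, 1877 and 2253 with AXBP1 and 1747 and 2452 with both transgenes. Those of Tsc22d3 were 3638 and 2897 for WT, 5848 and 3321 with ACreb3l2, 3808 and 3895 with AXBP1 and 3603 and 5454 with both transgenes. Both were highest in ACreb3l2 replicate 1, while Nr3c1 was highest in ACreb3l2/AXBP1 replicate 2. Dusp1, which overlaps an exon of Ergic1 on the opposite strand, ran from 4812 to 7362 normalized counts in WT and from 897 to 3754 over the transgenic libraries. Its log2 change of -1.45 in ACreb3l2/AXBP1 was not called (edgeR adjusted p = 0.289).

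The list of other amine and peptide receptors was the longest. Of 40 listed 25 were tested, and in ACreb3l2/AXBP1 against WT 4 were called higher and 2 lower (24.0% of those tested, against 10.1% of all genes), with 1 called in ACreb3l2 (4.0%, against 3.04%). Oprl1, the nociceptin receptor, stood at 41.8 and 26.2 normalized counts for WT, 74.0 and 80.0 with ACreb3l2, 70.2 and 58.9 with AXBP1 and 122 and 146 with both transgenes, where it rose by 1.96 ± 0.26 on the log2 scale (edgeR adjusted p = 0.00301). Sstr3, a somatostatin receptor coupled to inhibitory G proteins, stood at 299 and 320 for WT, 553 and 475 with ACreb3l2, 404 and 463 with AXBP1 and 526 and 612 with both transgenes, with log2 changes of 0.74 ± 0.13 in ACreb3l2 (adjusted p = 0.0177), 0.49 ± 0.14 in AXBP1 (adjusted p = 0.474) and 0.88 ± 0.13 with both (adjusted p = 0.00503). Oxtr, the oxytocin receptor, fell in ACreb3l2/AXBP1 from 796 and 780 to 427 and 277 (log2 change -1.16 ± 0.20, adjusted p = 0.0111), with 658 and 538 in ACreb3l2 and 588 and 723 in AXBP1 (log2 changes -0.39 and -0.27, adjusted p = 0.353 and 0.631). In ACreb3l2/AXBP1 the calls were kept in 18 of 18 alternatives for Oprl1, 16 for Sstr3 (lost without ACreb3l2/AXBP1 replicate 2) and 16 for Oxtr (lost without WT replicate 2), and the Sstr3 call in ACreb3l2 was kept in 12 (lost without either WT library or ACreb3l2 replicate 1). Sstr1 was also called higher and Adrb1 lower there, and these 2 are named after their values were seen. The Sstr1 call was kept in 10 of 18 alternatives and the Adrb1 call in 8, and both were lost without either WT library, either AXBP1 library or ACreb3l2/AXBP1 replicate 2, where the log2 change of Sstr1 was 0.46 in place of 0.72.

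**Figure D5:**
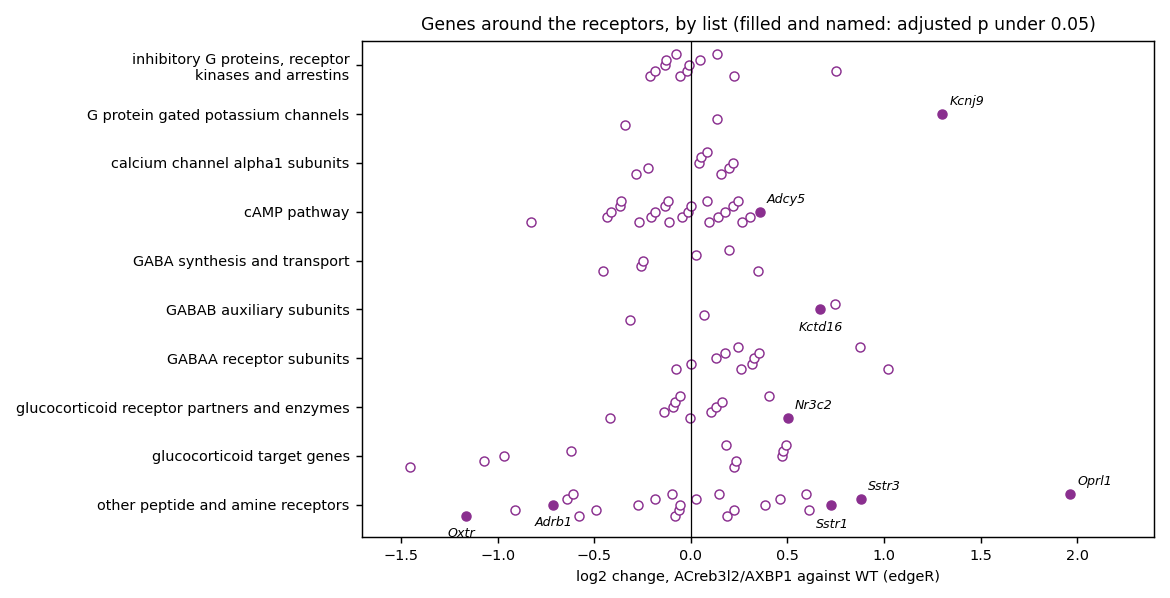
Log2 change in ACreb3l2/AXBP1 against WT of tested genes of the 10 lists with a tested member, a row per list, with called genes filled and named and 1 called gene not drawn. Of the 10 called genes 6 are in the list of other peptide and amine receptors and 1 is in each of 4 other lists, with Oprl1 at 1.96 the farthest above 0 and Oxtr at -1.16 the lowest of those called.

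The genes whose profile over the 8 libraries was most like that of a receptor were found among 14026 protein-coding genes, as a description over libraries that share their groups and their depth. Drd2 was most like Ip6k1 (Pearson r = 0.955 over 8 libraries), Repin1 (0.950) and Aqp3 (0.946). Crhr1 was most like Aldh3a2 (0.984), Fzd2 (0.983) and Efnb1 (0.976), and Gabbr1 like Hecw2 (0.983), Prrg3 (0.971) and Mcoln3 (0.965). Gabbr2 was most like Mastl (0.965), Tgfb2 (0.963) and Pard3b (0.961), and Nr3c1 like Rasef (0.993), Adamts6 (0.990) and Fam126a (0.989). They were picked as the highest of 14026 values and carry no test, and none of these genes was a member of a list examined here.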

How the data were processed

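Lobe RNA was sequenced as 50 bp paired reads after ribosomal depletion per the labels. The study's methods say that reads were trimmed with Trimmomatic, aligned to mm10 with Tophat and counted per Ensembl gene with HTSeq-count, and the authors deposited these raw counts without normalization. Another aligner appears in the printed software list and another library kit in the methods text, and the annotation release and the strand setting of the counting are not given in the sources used here. The FPKM values were deposited as the authors estimated them, with Cufflinks in their software list.

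Groups came from the labels. Genes with a mean normalized count above 20 were fitted in edgeR 4.0.16 (R 4.3.3) on all 8 libraries with 1 mean per group, TMM factors (0.913 to 1.10), robust dispersion and the quasi-likelihood test. The common biological coefficient of variation was 0.107. A gene was called at a Benjamini-Hochberg adjusted p under 0.05 over the 15580 genes, which held 99.9% of the counts. DESeq2 1.42.0 and limma 3.58.1 (on log2 FPKM plus 1 or 0.1) were alternatives. All tests were two-sided, and the scripts were tested on simulated counts.

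The 5 members and all lists were chosen with earlier results of these data known. Text names list genes called in any comparison (at most the 4 with the lowest adjusted p per list), otherwise the 2 with the highest FPKM, plus Gad1, Kctd12, Kctd16, Kctd8, Drd4, Crhr2, Crhbp, Nr3c2, Hsd11b1, Fkbp5, Tsc22d3, Gnao1, Gnas, Kcnj3, Kcnj6 and Th. Some of these genes are not reported here. In ACreb3l2/AXBP1 against WT edgeR called 2 of 7 tested melanotrope, 1 of 9 pituicyte and 1 of 5 stem or marginal cell markers (Sox2), where it called 10.1% of all genes. Over the other of the 9 marker lists it called 0, in the endothelial, macrophage, fibroblast, anterior lobe, axon and erythroid lists (DESeq2 called 2 endothelial ones). Same-numbered replicates deviated with correlations from -0.20 to 0.09 over the group pairs, so the numbers were not taken to pair libraries.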

Additional observations from a re-analysis of the deposited data

How the results depend on the processing

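Of the results given against WT, the Nr3c1 call in ACreb3l2/AXBP1 depended on the setting. Its log2 change was 0.46 and uncalled with the replicate block (adjusted p = 0.0761), 0.46 with the compared groups only (adjusted p = 0.0988) and 0.46 without robust estimation (adjusted p = 0.0554), and 0.36, 0.37 and 0.36 in the FPKM fits with pseudocount 1, with 0.1 and with no filter (adjusted p = 0.233, 0.236 and 0.409). Leaving out single libraries gave 0.30 to 0.61 (adjusted p from 0.0235 to 0.350). The count of members called there was accordingly 0 in those 6 settings and 0 to 1 when a library was left out, and the cause was not tested. The replicate block changed no other call of a member, and of the list genes given it lost Kctd16 in ACreb3l2/AXBP1 and Nr3c2 in ACreb3l2.

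Changes near 0 changed sign, none of them called. Drd2 in ACreb3l2 against WT became 0.074 with library size only and 0.030 in each of the 3 FPKM fits. With single libraries left out, Drd2 against WT ranged from -0.22 to 0.23 (ACreb3l2), -0.32 to 0.13 (AXBP1) and -0.40 to 0.048 (both transgenes), and Gabbr2 from -0.14 to 0.56 (ACreb3l2) and -0.038 to 0.66 (both). In the double transgenic against AXBP1, library size only gave 0.023 for Drd2 and 0.093 for Gabbr1, and the 3 FPKM fits gave 0.064 for Drd2 and 0.024, 0.025 and 0.024 for Gabbr1, while libraries left out gave -0.21 to 0.042 for Drd2, -0.17 to 0.29 for Crhr1, -0.084 to 0.059 for Gabbr1 and -0.23 to 0.034 for Gabbr2. In the double transgenic against ACreb3l2, Gabbr1 was 0.018 with library size only, and Gabbr2 was -0.0024, -0.0072 and -0.0024 in the FPKM fits and -0.031 to 0.26 over libraries left out. Between the single transgenics these ranges were -0.016 to 0.22 for Drd2, -0.076 to 0.38 for Crhr1 and -0.053 to 0.11 for Nr3c1. The interaction was 0.034 for Drd2 and 0.067, 0.069 and 0.067 for Nr3c1 in the 3 FPKM fits, with ranges of -0.31 to 0.14, -0.23 to 0.069 and, for Gabbr2, -0.66 to 0.032.

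Scaling by library size alone moved the median of all genes by 0.16 in ACreb3l2/AXBP1 against WT and made 66.9% of the called genes higher, against 30.5%. In the 3 FPKM fits that median was -0.13, -0.16 and -0.039 in AXBP1 against WT, and 8.32%, 8.66% and 8.42% of the called genes in ACreb3l2/AXBP1 were higher. Over all genes, the calls in ACreb3l2/AXBP1 against WT numbered 1566 as reported, 3209 with no filter, 654 with the compared groups only, 901, 889 and 297 in FPKM and 215 to 2050 with a library left out, and in ACreb3l2 against WT 473, 1455, 275, 225, 221, 125 and 152 to 623, with 755 by DESeq2 and 304 with library size only. In AXBP1 against WT the 0 calls became 628 with no filter and 80 by DESeq2. In ACreb3l2 against AXBP1 112 calls became 730 with no filter, 263 by DESeq2, 12, 11 and 9 in FPKM and 16 to 155 with a library left out (16 and 21 without an AXBP1 library), and in ACreb3l2/AXBP1 against AXBP1 97 became 755, 283, 19, 20, 4 and 7 to 155 (7 and 8), with 55 by library size only and 58 under the replicate block. The called list genes kept their direction in all alternatives and lost their call in 81 fits, 30 of them on FPKM, while uncalled ones gained a call in 24. Gabbr2, with 73.1 to 135 normalized counts, was the member that counting limits most.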
